A study of Mus musculus with 2 samples.

Results

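The genes described here encode Wnt ligands, their receptors and co-receptors, their secreted and surface inhibitors, and the feedback and nuclear genes of the same pathway, measured in CD133-positive and CD133-negative cells of a mouse stomach line. Members were chosen by the gene name printed on the array: names that begin with Wnt, Fzd, Dkk or Sfrp and a digit, together with a fixed list of co-receptors, inhibitors, feedback genes, TCF/LEF factors and related proteins. The rule used no measured value, although it was chosen with earlier results of these data known. It took 92 of 43379 non-control spots, which held 83 of 41174 different probes and stood for 57 genes. Of these 57 genes, 32 were bright enough to be tested, among 15269 tested genes in all. Notum and Tcf7l1, which the list also names, had no spot.

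The cells were GIF-5, a line of gastric epithelial cells from mice with the genotype Runx3-/-p53-/-, so both fractions lack Runx3 and p53. They were grown in DMEM with bovine serum, stained with a PE-labelled antibody against CD133 and sorted into CD133-positive and CD133-negative cells; no treatment was applied and the line is the only genotype. Each of the 2 two-colour arrays set the fractions against each other directly, with Cy3 on the CD133-positive and Cy5 on the CD133-negative RNA. The labels call the arrays biological replicates 1 and 2 without saying that they came from separate cultures. The p-values thus measure only the spread between these arrays, with a variance partly borrowed from all genes, and that spread may be technical. Both arrays carried the dyes the same way round, so an effect of the dye and a difference between the fractions cannot be told apart.

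Wnt proteins are secreted lipid-modified ligands that bind Frizzled receptors together with the co-receptors LRP5 or LRP6. In the canonical branch this stabilises beta-catenin, which enters the nucleus and activates target genes with TCF/LEF factors; several of those targets, such as Axin2, Rnf43, Znrf3, Nkd1 and Apcdd1, encode inhibitors of the pathway. In the stomach, Wnt signals maintain gland progenitors, and Axin2 and Lgr5 are used there as markers of cells that respond to them.

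A level and a log2 ratio are given for each gene. The level is the normalised log2 intensity of 1 fraction on 1 array. The log2 ratio is CD133-positive over CD133-negative on 1 array, so a negative ratio means less signal in CD133-positive cells; the mean over both arrays is followed by its moderated standard error (limma, n = 2 arrays). In RNA from sorted populations, fewer expressing cells and less RNA per cell cannot be told apart. The sort itself was seen in the array values: the CD133 gene Prom1 had levels of 9.45 and 9.28 in CD133-positive cells while its levels in CD133-negative cells, 5.63 and 5.55, were not well above background, so it was at least 12.0-fold higher in the former (limma adjusted p = 0.0097). Keratin genes of the epithelium, Krt8, Krt18 and Krt19, were well above background in both fractions, with mean log2 ratios of -0.78, -0.54 and -0.79 (limma adjusted p = 0.083, 0.12 and 0.086). The epithelial genes Cdh1 and Cldn18 went the other way, with means of 0.42 and 0.79 (limma adjusted p = 0.28 and 0.084). Epcam, another epithelial gene, was not bright enough to be tested.

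Only 2 members passed the test, and both were lower in CD133-positive cells: the ligand gene Wnt10a and the inhibitor gene Apcdd1. No member was called higher. Over all 15269 genes, 0.262% were called lower and 1.38% higher at a limma adjusted p under 0.05. At an unadjusted p under 0.05, limma gave 11 members lower and 5 higher, which is 34.4% and 15.6% of those tested, beside 15.97% and 11.9% of all tested genes. By size alone, 6 members were at least 2-fold lower on both arrays (Ccn4, Wnt10a, Apcdd1, Wnt7a, Sfrp4 and Fzd6), where 2.12% of all genes were, and 2 were at least 2-fold higher on both (Fzd7 and Fzd4), where 2.5% of all genes were. The median log2 ratio of the 32 tested members was -0.17, against -0.03 for all tested genes, but relative to all genes it was 0.16 when arrays were centred on their medians in place of the loess curve. That centring moved the median of all genes to -0.74 and called 16 members lower and 1 higher, where it called 63.0% of all genes lower and 3.17% higher. Scaling the arrays to 1 spread called 5 members lower and 2 higher, where it called 1.31% of all genes lower and 2.10% higher.

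**Figure D1:**
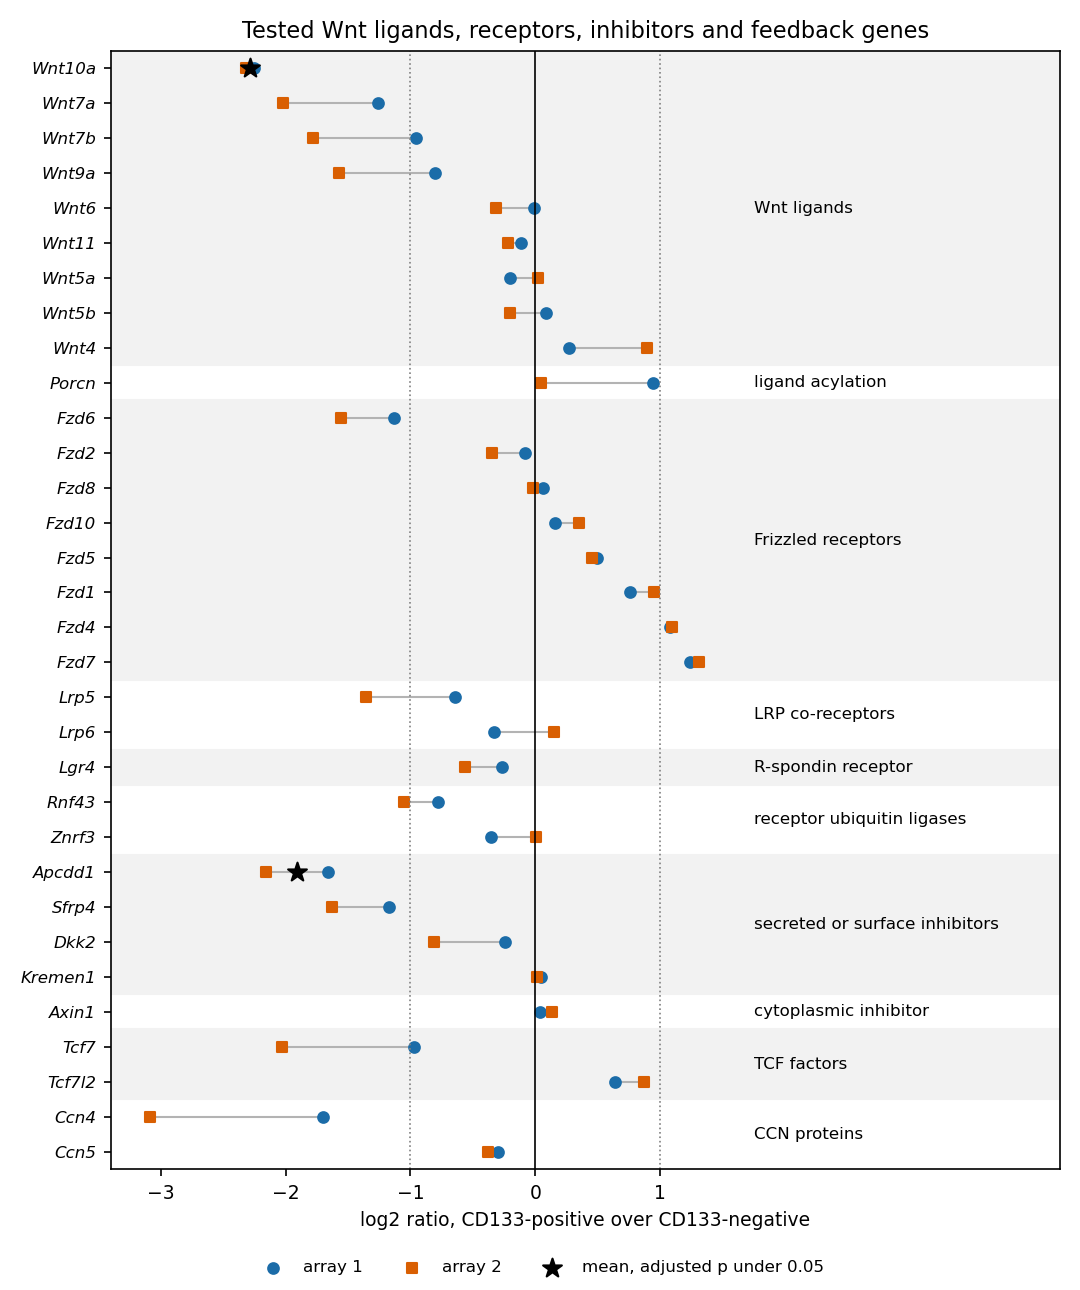
Log2 ratio of CD133-positive over CD133-negative cells (x axis) for the 32 tested members, grouped by role; circles are array 1, squares array 2, stars the mean of the members with a limma adjusted p under 0.05, and dotted lines mark 2-fold. Wnt10a and Apcdd1 carry the stars at -2.29 and -1.91, Fzd7 lies farthest to the right at 1.24 and 1.31, and Ccn4 has its arrays far apart at -1.70 and -3.09.

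Among the ligands, Wnt10a fell. Wnt10a encodes a ligand best known from skin and tooth development, where its loss is a cause of ectodermal dysplasia. Its level was 10.90 and 9.97 in CD133-positive cells on arrays 1 and 2, and 13.16 and 12.29 in CD133-negative cells. The fractions did not overlap: both CD133-positive values lay below both CD133-negative values, and array 2 was the dimmer in either fraction. Members with small ratios, such as Wnt6, Wnt11, Fzd2 and Fzd10, had no overlap either. The share of all tested genes without overlap is not given here, so a lack of overlap does not set a gene apart. The log2 ratios were -2.26 and -2.32, with a mean of -2.29 ± 0.14 (limma adjusted p = 0.020), which is 4.88-fold lower in CD133-positive cells. The call was made under 9 of 11 alternatives with a test and was lost without the filter on dim probes (adjusted p = 0.055) and without moderation of the variance (adjusted p = 0.45). Those settings called 0 of 27670 and 0 of 15269 genes lower, so these losses were not particular to Wnt10a.

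Of the 19 ligand genes, 9 were tested. Wnt10a was the only ligand called; the ratios of 6 ligands were below 0 on both arrays, 1 was above 0 on both and 2 had opposite signs, with a median of -0.17. Wnt7a, a ligand of epithelia and neurons, had levels of 7.08 and 6.95 in CD133-positive and 8.35 and 8.98 in CD133-negative cells, which did not overlap. Its log2 ratios were -1.26 and -2.02, with a mean of -1.64 ± 0.24 that missed the threshold (limma adjusted p = 0.068). Wnt7b, its close relative, had levels of 7.93 and 7.03 against 8.88 and 8.82, also without overlap. The ratios of Wnt7b were -0.96 and -1.78, with a mean of -1.37 ± 0.25 (limma adjusted p = 0.083).

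Wnt9a gave log2 ratios of -0.80 and -1.57, with a mean of -1.19 ± 0.24 (limma adjusted p = 0.089). Its signal in CD133-positive cells was well above background on array 1 and not on array 2, and a second probe of Wnt9a was dim in both fractions. Wnt4, a ligand with roles in kidney and gonad, was the only ligand with ratios above 0 on both arrays. It had levels of 10.54 and 9.89 in CD133-positive and 10.27 and 9.0 in CD133-negative cells; these overlap, because array 1 was brighter in either fraction. The ratios of Wnt4 were 0.27 and 0.89, with a mean of 0.58 ± 0.21 (limma adjusted p = 0.18). Wnt6 and Wnt11 lay near 0, at -0.014 and -0.32 and at -0.12 and -0.22; the signs of both relative to all genes turned with median centring. Wnt5a and Wnt5b, ligands of the branches that do not use beta-catenin, changed sign between arrays: Wnt5a was at -0.20 and 0.02, and Wnt5b at 0.083 and -0.21.

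Porcn, the enzyme that attaches the lipid to Wnt proteins, was split between the arrays. Its level was 9.68 in CD133-positive and 8.74 in CD133-negative cells on array 1, and 9.01 against 8.97 on array 2. The log2 ratio was thus 0.94 on array 1 and 0.04 on array 2, with a mean of 0.49 ± 0.27 (limma adjusted p = 0.32).

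The Frizzled receptors, the seven-pass membrane proteins that bind Wnt ligands, had a median log2 ratio of 0.36 over the 8 tested of 10 genes. The ratios of 5 were above 0 on both arrays, 2 were below 0 on both and 1 had opposite signs. None was called (limma; at an unadjusted p under 0.05, 4 were higher and 1 lower, beside 11.9% and 15.97% of all tested genes). Fzd7, a receptor of stomach and intestinal progenitors, came closest. Its levels were 9.45 and 9.27 in CD133-positive cells and 8.21 and 7.95 in CD133-negative cells, with no overlap. The log2 ratios were 1.24 and 1.31, with a mean of 1.28 ± 0.14 and an adjusted p of 0.051 (limma), which missed the threshold of 0.05; under 7 of 11 alternatives with a test the adjusted p was below 0.05. A second, dimmer probe of Fzd7 had ratios of 0.11 and -0.12, so the probes of this gene disagreed.

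Fzd4, which is also the receptor of the ligand norrin, had levels of 9.49 and 9.32 in CD133-positive and 8.41 and 8.23 in CD133-negative cells. Its ratios of 1.08 and 1.10 differed little between arrays and gave a mean of 1.09 ± 0.14 (limma adjusted p = 0.062). Fzd1 had levels of 9.39 and 9.56 against 8.63 and 8.61, and ratios of 0.76 and 0.95 with a mean of 0.85 ± 0.14 (limma adjusted p = 0.080). In all 3 genes the CD133-positive values lay above the CD133-negative values on both arrays. Fzd5, a receptor needed in intestinal Paneth cells, had ratios of 0.49 and 0.46, and Fzd10 of 0.15 and 0.35. Fzd8 was at 0.06 and -0.02. Fzd2, with ratios of -0.08 and -0.35, had 2 tested probes that gave similar values, the second at -0.18 and -0.32.

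Fzd6, a receptor of planar cell polarity, went the other way. It had levels of 9.25 and 9.01 in CD133-positive and 10.38 and 10.56 in CD133-negative cells, with no overlap. Its log2 ratios were -1.13 and -1.55, with a mean of -1.34 ± 0.17 (limma adjusted p = 0.065). Within the Frizzled genes the ratios thus ran from -1.34 for Fzd6 to 1.28 for Fzd7.

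**Figure D2:**
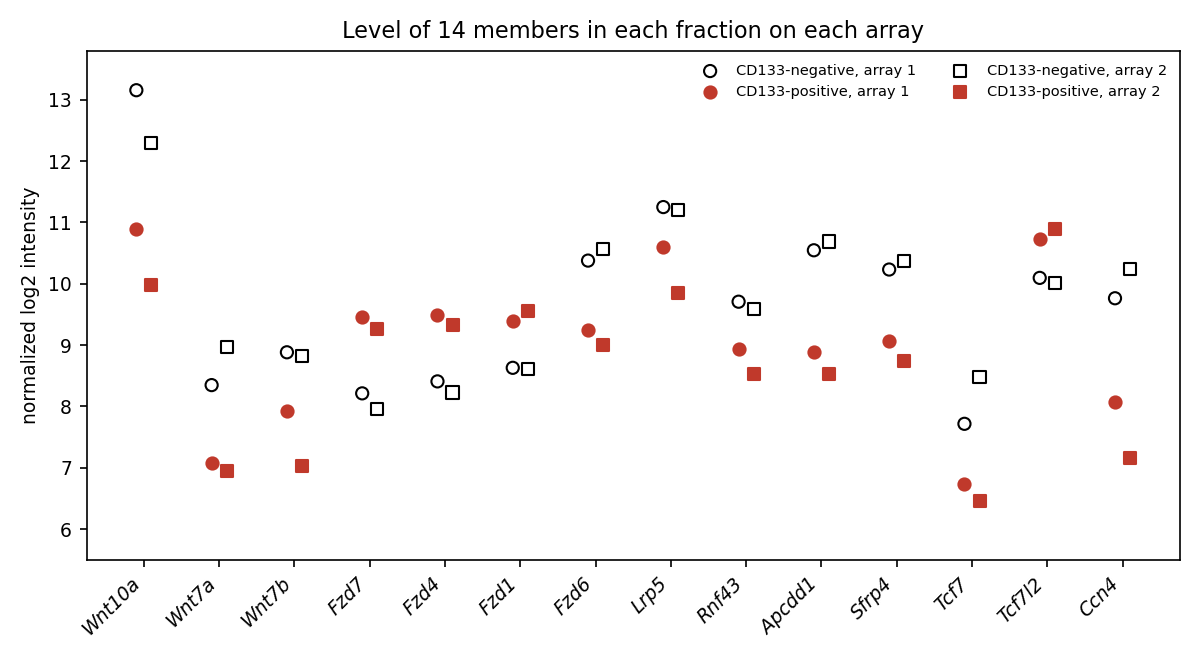
Normalised log2 intensity (y axis) of 14 tested members in each fraction; filled red symbols are CD133-positive and open black symbols CD133-negative cells, circles array 1 and squares array 2. The red symbols lie above the black ones for Fzd7, Fzd4, Fzd1 and Tcf7l2 and below them for the others, and levels of different genes cannot be compared because each has its own probe.

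Because Fzd7, Fzd4 and Wnt7a are the 3 of the 8 members at least 2-fold apart on both arrays for which the RefSeq promoter table (GRCm38.p6) holds an entry, the 250 bases before their start sites are shown, 5′ to 3′ on the strand of the gene. They lie at chr1:59481897-59482146 (plus strand) for Fzd7, chr7:89404116-89404365 (plus strand) for Fzd4 and chr6:91411354-91411603 (minus strand) for Wnt7a. Capitals mark a match to the TCF/LEF word, CTTTGNN with A or T at each N, searched on both strands; no other motif was searched.
Fzd7: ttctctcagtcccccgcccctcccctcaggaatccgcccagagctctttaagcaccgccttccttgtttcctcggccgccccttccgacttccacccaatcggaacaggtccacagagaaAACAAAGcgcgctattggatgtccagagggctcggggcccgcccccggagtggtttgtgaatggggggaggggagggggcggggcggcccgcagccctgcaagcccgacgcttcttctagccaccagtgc
Fzd4: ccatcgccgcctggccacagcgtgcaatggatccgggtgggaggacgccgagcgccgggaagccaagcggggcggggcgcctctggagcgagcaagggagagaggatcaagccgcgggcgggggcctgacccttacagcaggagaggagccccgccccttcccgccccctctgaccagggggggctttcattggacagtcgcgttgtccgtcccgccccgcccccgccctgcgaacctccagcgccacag
Wnt7a: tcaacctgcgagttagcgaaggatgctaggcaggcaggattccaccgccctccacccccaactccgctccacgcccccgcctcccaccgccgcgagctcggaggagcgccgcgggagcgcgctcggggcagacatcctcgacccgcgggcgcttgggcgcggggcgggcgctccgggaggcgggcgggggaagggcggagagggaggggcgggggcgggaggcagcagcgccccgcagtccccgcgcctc
Fzd7 holds 1 match, which reads AACAAAG on the strand shown and begins 130 bases before the start; Fzd4 and Wnt7a hold none in this window. Such a word occurs in 14.8% of all 32851 windows of this length in the table, and in 4 of the 22 windows of tested members (those of Fzd7, Tcf7l2, Wnt11 and Wnt5b). The windows of Fzd7, Fzd4 and Wnt7a hold 65.2%, 72.8% and 77.6% G and C. The table held an entry for 16 of the 32 tested members.

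Lrp5, of the co-receptors, had levels of 10.60 and 9.84 in CD133-positive and 11.25 and 11.20 in CD133-negative cells, so the fractions did not overlap. Its log2 ratios were -0.65 and -1.36, with a mean of -1.0 ± 0.23 (limma adjusted p = 0.10). Lrp6 had ratios of -0.33 and 0.15, of opposite signs, and its levels overlapped; the difference between Lrp5 and Lrp6 was not tested. Lgr4, a receptor for R-spondins, the secreted amplifiers of Wnt signals, had ratios of -0.27 and -0.56 with its brightest probe and -0.33 and -0.55 with the next. Another, dimmer tested probe of Lgr4 had ratios of 0.079 and -0.15, of opposite signs. Its levels, 6.48 and 6.23 against 6.40 and 6.38, lay near background, so it says little about the brighter probes. The mean of the brightest was -0.41 ± 0.15 (limma adjusted p = 0.19).

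Rnf43 and Znrf3 encode membrane ubiquitin ligases that remove Frizzled receptors from the cell surface. Rnf43 had levels of 8.93 and 8.53 in CD133-positive and 9.71 and 9.58 in CD133-negative cells, with no overlap. The log2 ratios of Rnf43 were -0.78 and -1.05, with a mean of -0.91 ± 0.15 (limma adjusted p = 0.079). Znrf3 had ratios of -0.36 and 0.00, a mean of -0.18 ± 0.16 and overlapping levels (limma adjusted p = 0.55).

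Among the secreted and surface inhibitors, Apcdd1 fell. Apcdd1 encodes a membrane glycoprotein that binds Wnt and LRP proteins, and it is itself a target of beta-catenin. Its level was 8.88 and 8.53 in CD133-positive cells and 10.55 and 10.69 in CD133-negative cells, without overlap. The log2 ratios were -1.66 and -2.16, with a mean of -1.91 ± 0.18 (limma adjusted p = 0.044), or 3.76-fold lower. A second probe of Apcdd1, not well above background in CD133-positive cells, gave log2 ratios of -0.21 and -0.28. With the mean of both probes the value was -1.05 relative to all genes and the call was lost (limma adjusted p = 0.064). It was also lost without the filter on dim probes (adjusted p = 0.11) and without moderation of the variance (adjusted p = 0.51). In both of these settings no gene on the arrays was called lower.

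Sfrp4, a secreted protein that binds Wnt ligands, had levels of 9.06 and 8.74 in CD133-positive and 10.23 and 10.37 in CD133-negative cells. The fractions did not overlap, and the ratios of Sfrp4 were -1.17 and -1.63, with a mean of -1.40 ± 0.18 (limma adjusted p = 0.064). Dkk2, of the Dickkopf family that binds LRP co-receptors, was not well above background in CD133-positive cells. Its levels were 6.59 and 6.94 in CD133-negative cells, and its log2 ratios were -0.25 and -0.81. By the mean ratio, Dkk2 was 1.44-fold higher in CD133-negative cells (limma adjusted p = 0.19). Median centring turned the sign of Dkk2 relative to all genes, yet called it lower in CD133-positive cells (limma adjusted p = 0.045). Kremen1, a receptor of Dickkopf proteins, was at 0.044 and 0.014 with its brightest probe and at -0.29 and 0.46, of opposite signs, with another. Inside the cell, Axin1, the scaffold of the complex that marks beta-catenin for destruction, was at 0.04 and 0.13; its sign relative to all genes turned with median centring as well.

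The TCF factors had ratios of opposite sign. Tcf7, which encodes TCF1, had levels of 6.74 and 6.46 in CD133-positive and 7.72 and 8.49 in CD133-negative cells, with no overlap. In CD133-positive cells it was well above background on array 1 and not on array 2. Its log2 ratios were -0.97 and -2.03, with a mean of -1.50 ± 0.30 (limma adjusted p = 0.089); a second probe of Tcf7 gave -0.52 and -1.13. Tcf7l2, which encodes TCF4, the main factor of intestinal epithelium, had levels of 10.74 and 10.89 against 10.10 and 10.02. The ratios of Tcf7l2 were 0.64 and 0.87, with a mean of 0.75 ± 0.15 (limma adjusted p = 0.088), and 2 dimmer probes tested for it gave 0.40 and 0.48, and 0.07 and 0.33. The difference between Tcf7 and Tcf7l2 was not tested.

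Ccn4, named Wisp1 on the array, encodes a matricellular protein first found as a Wnt-1 induced gene. Its levels were 8.07 and 7.16 in CD133-positive cells and 9.76 and 10.25 in CD133-negative cells. The fractions did not overlap, and CD133-positive cells were lowest on array 2. The ratios were -1.70 and -3.09. The mean of -2.39 ± 0.38 was larger in size than that of Wnt10a, but the arrays lay far apart and Ccn4 was not called (limma adjusted p = 0.076). Ccn5, named Wisp2 on the array, was not well above background in CD133-positive cells. Its log2 ratios were -0.30 and -0.38, and by the mean it was 1.26-fold higher in CD133-negative cells (limma adjusted p = 0.21). The sign of Ccn5 relative to all genes turned with median centring.

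After loess normalisation, the 32 tested members had 17 genes below 0 on both arrays, 10 above 0 on both and 5 with opposite signs; over all tested genes, 39.7% were below 0 on both arrays and 32.6% above. The ratios of all 17 were lower on array 2 than on array 1, whereas 69.0% of the 6059 genes below 0 on both arrays were. The spread of ratios was wider on array 2 for all genes, with an SD over genes of 0.60 on array 1 and 0.76 on array 2, and for the tested members, with 0.83 and 1.13. Of the 10 members above 0 on both arrays, 7 were farther from 0 on array 2.

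**Figure D3:**
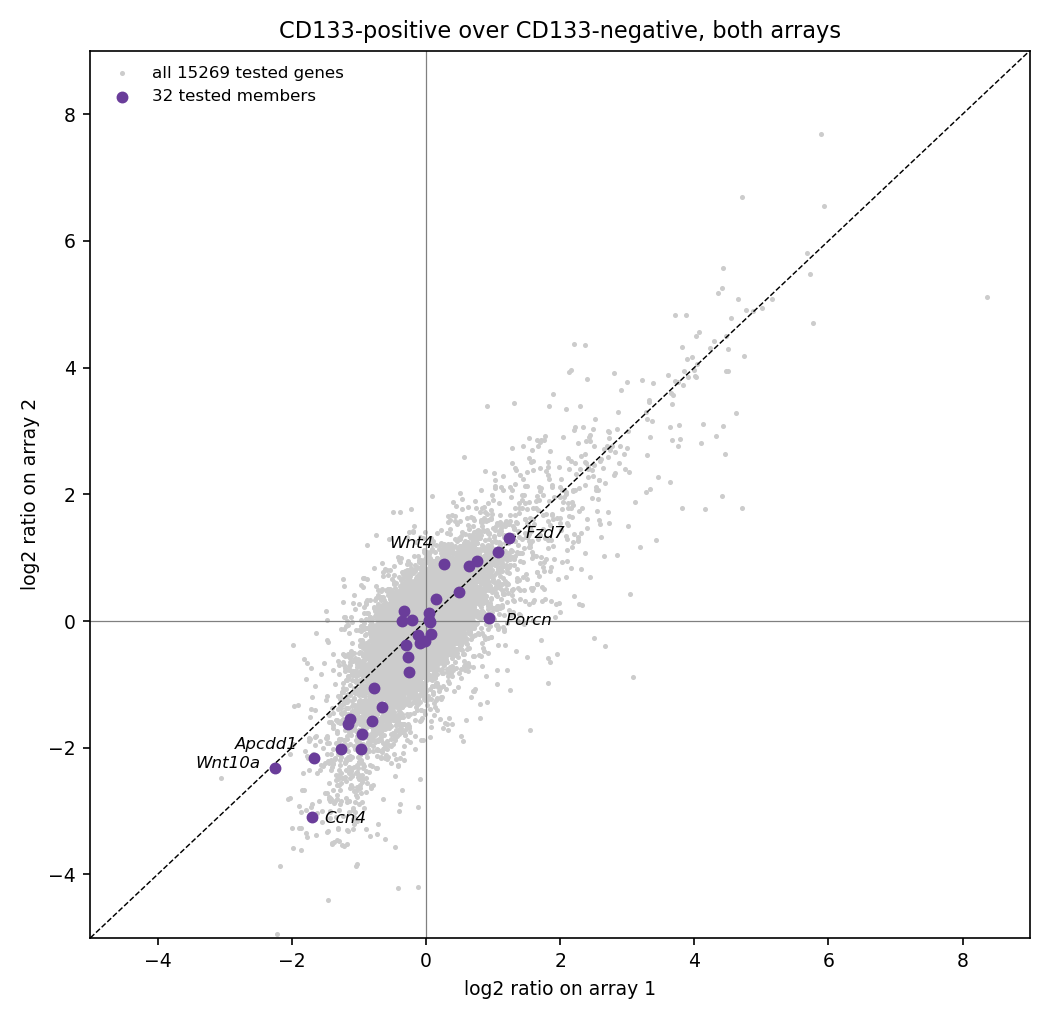
Log2 ratio of CD133-positive over CD133-negative cells on array 1 (x axis) and array 2 (y axis); grey points are all 15269 tested genes, purple points the 32 tested members, and the dashed line marks equal ratios. The members below 0 on both arrays lie under the dashed line, Ccn4 farthest from it at -1.70 and -3.09, while Wnt10a, Fzd7 and Fzd4 lie on or near it.

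The remaining 25 members were too dim to test. They were 10 ligands (Wnt1, Wnt2, Wnt2b, Wnt3, Wnt3a, Wnt8a, Wnt8b, Wnt9b, Wnt10b and Wnt16), the receptors Fzd3, Fzd9 and Lgr5, the secreted or surface inhibitors Dkk1, Dkk3, Dkk4, Kremen2, Sfrp1, Sfrp2, Sfrp5 and Wif1, the cytoplasmic inhibitors Axin2, Nkd1 and Nkd2, and the nuclear factor Lef1. In 23 of them no probe was well above background in any channel. Lgr5, a receptor that marks gland stem cells, stood well above background only in the Cy3 channel of array 1, with levels of 6.33 and 6.02 in CD133-positive and 6.0 and 5.95 in CD133-negative cells. Nkd2, a feedback inhibitor, was so in CD133-negative cells on array 2 alone, with a level of 6.06. Axin2, the usual reporter of canonical signalling, had levels of 6.0 and 6.03 against 6.10 and 6.12, all within background, so a difference was not detectable. The ratios of the 33 probes of these genes lay between -0.24 and 0.33.

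The other genes of the pathway, none of them a member, were read from 3 lists, which were chosen with earlier results of these data known. Of the transducers, which carry the signal from the receptor to the nucleus, 28 of 29 were tested; 0 were called by limma in either direction, with 6 lower and 2 higher at an unadjusted p under 0.05, or 21.4% and 7.14%, beside 15.97% and 11.9% of all tested genes. Of the secretion and other surface proteins, 15 of 25 were tested and 1 was called higher. At an unadjusted limma p under 0.05, 5 of them were lower and 2 higher, or 33.3% and 13.3%. Of the target genes, 20 of 26 were tested and 2 were called higher. At that unadjusted p, 9 targets were lower and 5 higher, or 45% and 25%. Among all tested genes of the arrays, 1.38% were called higher and 0.262% lower. None of the 63 tested genes was called lower (limma; 20 were lower and 9 higher at an unadjusted p under 0.05, or 31.7% and 14.3%). Median centring called 44 of them lower and 7 higher, where it called 63.0% of all genes lower and 3.17% higher. The medians of the lists were -0.14, -0.23 and -0.36, beside -0.03 for all tested genes.

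Prickle1, a cytoplasmic protein of planar cell polarity that was placed in the list of secretion and other surface proteins, rose. Its levels were 10.23 and 11.08 in CD133-positive and 8.14 and 9.04 in CD133-negative cells, without overlap, and its log2 ratios were 2.09 and 2.04 (mean 2.06 ± 0.14, limma adjusted p = 0.023). Bambi, a membrane pseudoreceptor that inhibits TGF-beta signals and a target of beta-catenin, rose by 2.34 ± 0.14 (limma adjusted p = 0.020), from 6.28 and 6.53 to 8.69 and 8.81. Fst, the activin antagonist follistatin, rose by 2.44 ± 0.14 (limma adjusted p = 0.018), from 6.35 and 6.88 to 8.73 and 9.37. Bambi and Fst are known to respond to other signals as well.

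Genes with the largest ratios that were not called were mostly below 0. Celsr1, a polarity cadherin, had ratios of -1.32 and -2.82, and Ptk7, a pseudokinase co-receptor, of -0.64 and -2.03. Lgr6 was at -0.41 and -1.26, and Celsr2 at -0.58 and -1.05. The glypican gene Gpc6 was at 0.96 and 0.99, or 1.96-fold higher in CD133-positive cells by the mean. Its signal in the CD133-negative fraction was not well above background. Among the targets, Sox9, a factor of epithelial progenitors, was at -0.73 and -2.03 (on array 2 it was not well above background in CD133-positive cells), Id2 at -0.82 and -1.64, Cd44 at -0.72 and -1.55 and the cyclin gene Ccnd1 at -0.68 and -1.22. Among the transducers, the kinase gene Csnk1e was at -0.96 and -0.86, the tankyrase gene Tnks2 at -0.72 and -0.95, Tle2 at -0.55 and -1.07, and Ctnnb1, which encodes beta-catenin, at -0.72 and -0.66; the co-repressor gene Tle4 was at 0.43 and 0.79 and Ctnnbip1, an inhibitor of beta-catenin, at 0.82 and 0.43. The limma adjusted p of these genes ran from 0.067 for Gpc6 to 0.14 for Lgr6. The ratios of Myc had opposite signs, at 0.47 and -0.44.

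**Figure D4:**
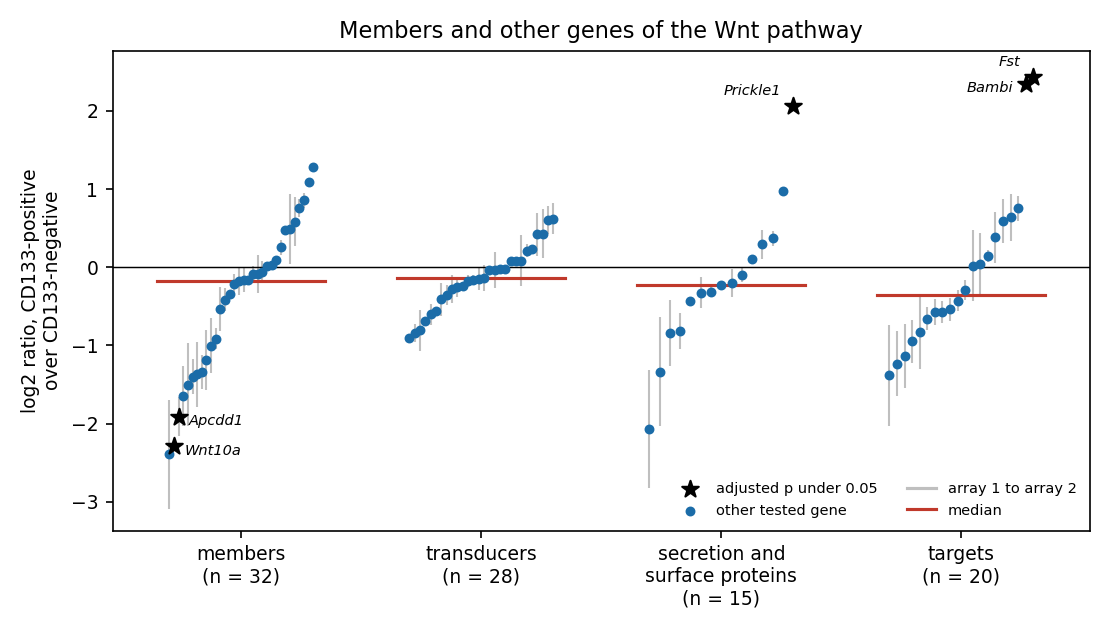
Mean log2 ratio of CD133-positive over CD133-negative cells (y axis) of the 32 tested members and of 28 transducers, 15 secretion and other surface proteins and 20 targets, ordered by value within each list; grey lines join the values of both arrays, red bars are medians and stars mark a limma adjusted p under 0.05. The stars are below 0 for Wnt10a and Apcdd1 and above 0 for Prickle1, Bambi and Fst.

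Markers of the stomach and of other cell types were read beside these results. Of 17 gastric epithelial markers, 13 were tested and 3 were called higher in CD133-positive cells (Gkn2, Tff1 and Pga5), with summed intensities of 359210 and 255549 in CD133-positive and 326576 and 334823 in CD133-negative cells. The list also holds Krt8, Krt18 and Krt19, which were not called. For each of them, both CD133-positive intensities lay below both CD133-negative ones. These keratin genes made up most of the CD133-negative sums, with Krt8 alone at 132591 and 137832. Every other tested gene of the list had a mean log2 ratio above 0. Gkn2 was at 85071 and 38338 against 1613 and 863, and Tff1 at 42835 and 10297 against 1893 and 526. Of 6 endothelial markers, Vwf and Cdh5 were tested and both were called higher. Vwf had a log2 ratio of 3.75 (limma adjusted p = 0.012), and Cdh5, not well above background in the CD133-negative fraction, was at least 5.81-fold higher (limma adjusted p = 0.043); their list summed to 1964 and 2728 against 428 and 457, and Pecam1, Kdr, Tek and Emcn were not well above background in either fraction. Of 11 fibroblast and muscle markers, 4 were tested and 0 called (limma), with sums of 9032 and 9714 against 8264 and 9245. Most of each sum came from Acta2, at 8238 and 8920 against 7403 and 8270 (log2 ratio 0.13, limma adjusted p = 0.60). Col1a1 was at -1.25 (limma adjusted p = 0.067), and Pdgfra, Pdgfrb, Dcn, Lum and Thy1 were not well above background. Of 8 blood markers, 6 were tested and 0 called (limma), with sums of 2069 and 1958 against 1965 and 1863. Most of each sum came from Cd14, at 1452 and 1379 against 1421 and 1314 (log2 ratio 0.05, limma adjusted p = 0.86). Ptprc and Itgam were not well above background. The part of these markers in the Wnt results was not tested.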

How the data were processed

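Expression was measured on 2 two-colour Agilent mouse arrays of 45018 spots. Per the file headers, the deposited spot and background values are unnormalised intensity read by Agilent Feature Extraction 9.5.3.1. The deposited processed signals (intensity) and their log10 ratio of red over green come from the same program, per the file headers. That ratio matched the processed signals within 0.001 at 32775 and 32732 spots of arrays 1 and 2 and is listed at 0 at the other 12243 and 12286. The deposited value table equals that log10 ratio at every one of the 45018 spots on each array (median 0). No spot was saturated. The number of arrays limits the precision.

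Normexp (offset 50) and loess were applied within each array, control spots at weight 0 (limma 3.58.1, R 4.3.3). Ratios were turned to CD133-positive over CD133-negative. Channel levels were taken after Aquantile scaling. Spots with an outlier flag were left out, and the rest averaged per probe. Tested probes had to be well above background in 1 dye on both arrays; a gene was its brightest tested probe. The two-sided moderated test had 1 residual degree of freedom, with Benjamini-Hochberg adjustment over 15269 genes at 0.05. A fold called "at least" sets the bright fraction against, per array, the higher of the dim probe's own level and the lowest level well above background; it is open to dye bias, since no dyes were swapped. Where the dim probe's own level was the higher on both arrays, the mean ratio is given without "at least". The offset of 50 pulls ratios of dim probes towards 0.

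Probes were named through the RefSeq table of GRCm38.p6: 22951 by accession, 9768 by symbol or synonym and 8455 by the name in the file. Members are those of the name rule; every tested member is named, and of the other pathway genes those called and up to 6 per list with the largest ratio of 1 sign on both arrays; Myc and the marker genes were named after their values were seen. Members and lists were chosen with earlier results of these data known. Alternatives changed the background correction, normalisation, filter, choice of probe, variance model or left out an array. The steps were tested on simulated data, with changes planted in brighter genes only and noise of a fixed size not taken from these arrays. That simulation says nothing of dim members. Probe sequences were not used here, so hybridisation to related family members was not tested.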

Additional observations from a re-analysis of the deposited data

How the results depend on the processing

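With 2 arrays, the adjusted p-values rest on a variance borrowed from all genes. Members called lower numbered 4 with an offset of 16, 16 with median centring, 5 with scaling between arrays, 6 with a variance prior that follows intensity, 1 with the mean of all probes, and 0 both without the dim filter and without moderation. Members called higher numbered 1 without background correction, with both channels required, with each probe tested, with that prior and with median centring, and 2 with an offset of 16 and with scaling. Those called higher were Fzd7, joined by Fzd4 under the last 2. Over all genes, 0.98% were called lower with an offset of 16, 63.0% with median centring, 1.31% with scaling and 2.14% with that prior. The share called higher was 2.61%, 3.17%, 2.10% and 3.24% in the same order. It was 1.86% without background correction, 1.68% with both channels required and 1.15% with each probe tested. With the mean of all probes, 0.26% of all genes were called lower. Without the dim filter, 0% of all genes were called lower and 0.10% higher. Without moderation, 0% were called in either direction. Members at least 2-fold lower on both arrays numbered 12 with median centring and 11 with the processed signals; higher, 0 with median centring and 1 with the mean of all probes. On single arrays, 6 to 11 members were at least 2-fold lower, with 11 when replicate 1 was left out. For these 2-fold counts, the share of all genes is given for the main setting only, at 2.12% lower and 2.5% higher.

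Relative to all genes, the median of the members was -0.14; it was -0.39 with the processed signals, -0.17 without background correction, -0.22 with the offset at 16, -0.071 without the dim filter, -0.16 with the mean of all probes and 0.16, of the other sign, with median centring, and it ran from -0.22 to -0.21 on single arrays. Median centring turned the sign of 8 members relative to all genes: Dkk2 (0.086), Ccn5 (0.32), Wnt11 (0.49), Axin1 (-0.034), Wnt6 (0.40), Wnt5a (0.39), Lrp6 (0.23) and Wnt5b (0.75). The median of all genes was -0.74 in that setting, so these signs need not be those of the ratios themselves. That setting called 9624 of all genes lower and 484 higher, against 40 and 211, and scaling called 200 and 320.

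Other pathway genes called higher numbered 7 with median centring, 6 with the processed signals, 5 with that prior, and 0 without the dim filter or without moderation; called lower, 44 with median centring and 1 with that prior. Over all genes, 3.17% were called higher with median centring, 2.57% with the processed signals and 3.24% with that prior. The share was 0.10% without the dim filter and 0% without moderation. Called lower were 63.0% of all genes with median centring and 2.14% with that prior. The causes of these shifts between settings were not tested. Each array pairs the fractions by design, so the reported fit is already paired, and no further block could be fitted to 2 arrays.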

Other observations

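3 probes carry the names of clones in the files and so fall outside the name rule, although the RefSeq table assigns them to members. The clone probe C030016K15Rik, assigned to Lrp6, had levels of 7.59 and 7.54 in CD133-positive and 7.17 and 6.86 in CD133-negative cells. Its log2 ratios were 0.42 and 0.68, with a mean of 0.55 ± 0.15 (limma adjusted p = 0.13), beside -0.33 and 0.15 for the probe named Lrp6. AI427138, assigned to Fzd5, had ratios of 0.30 and 0.61, with a mean of 0.46 ± 0.16 (limma adjusted p = 0.17), beside 0.49 and 0.46 for the probe named Fzd5. D930050A07Rik, assigned to Fzd3, was too dim to test, as were both probes named Fzd3.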
